A study of Mus musculus with 6 samples.

Results

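The 6 genes described here encode the CXC chemokines Cxcl1, Cxcl2, Cxcl3 and Cxcl5, which draw neutrophils into tissue, and the receptors Cxcr1 and Cxcr2. They were chosen as a family by symbol and not by a threshold on their levels, though with earlier results of these data known, and all 6 were found among the 770 genes of the table. Oral squamous cell carcinoma had been induced in mice with the carcinogen 4NQO, and RNA was taken from primary tumours fixed in formalin and embedded in paraffin. Of the 6 samples, 3 came from the group given vehicle and 3 from the group given agonistic anti-CD40, an antibody that activates the receptor CD40. Carcinoma induced by 4NQO was common to both groups, and the sources used here state no antibody dose, timing, mouse age or inbred strain. Nothing in the labels ties the samples of a group to separate animals, so the p-values reflect only the spread among these 6 samples, and some of it may be technical. The question was how the treatment group differed from the vehicle group in these genes.

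Chemokines of this class carry the amino acids Glu-Leu-Arg before the CXC motif. They bind Cxcr2, and some also Cxcr1, both G protein-coupled receptors on neutrophils. Epithelial cells, fibroblasts and macrophages make the ligands in response to interleukin-1, TNF, interleukin-17 and Toll-like receptor signals, largely through NF-κB and AP-1. In oral mucosa and squamous carcinoma these ligands are known as signals for neutrophil entry.

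The ligand genes Cxcl1, Cxcl2 and Cxcl3 are shown first by their promoters, because they share a sequence there that NF-κB factors are known to bind. The stretches below run 5′ to 3′ on the plus strand of mouse assembly GRCm38.p6, as RefSeq gives them, and the capitals mark GGGAATTTCCC, the longest run of letters common to the 250 bases before all 3 starts.
Cxcl1, chr5:90891159-90891228: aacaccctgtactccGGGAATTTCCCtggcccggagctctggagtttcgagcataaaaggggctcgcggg
Cxcl2, chr5:90903787-90903856: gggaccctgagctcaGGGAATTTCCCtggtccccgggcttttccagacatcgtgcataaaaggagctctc
Cxcl3, chr5:90786013-90786082: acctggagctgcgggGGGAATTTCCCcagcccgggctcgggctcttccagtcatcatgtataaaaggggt
The match began 71 bases before the annotated start of Cxcl1, 97 before that of Cxcl2 and 73 before that of Cxcl3. Between its last base and the letters ATAAAAG lay 26, 29 and 33 bases in the same order. These 11 letters, taken from the 3 promoters themselves, were searched on both strands of the 250 bases before each start. They occurred in 14 of 32851 RefSeq promoters (0.0426%) and for 4 of the 566 panel genes that had one. The panel gene beside the 3 ligands was Il16, a T cell cytokine gene that differed by 0.51 without being called. No match to these letters was found in the Cxcr1 and Cxcr2 windows, and no promoter of Cxcl5 was used here. A match is a description of the letters and not evidence of binding in these tumours.

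The deposited values are log2 normalized counts. Whole counts recovered from them summed to between 333400 and 578598 per library over the 770 genes. Background was set in each library at 2 SD over the mean count of its 8 negative control probes, or 24.7 to 26.6 counts. Because each library was multiplied by its own factor, that limit lay between 5.57 log2 in vehicle 3 and 6.52 log2 in vehicle 2. Levels are compared within a gene only, since each gene has its own probe and no length correction was available. Of the squamous epithelial markers the panel carried 7, and 5 of them exceeded background in all 6 libraries, including the adhesion genes Cdh1 and Epcam. Differences are anti-CD40 minus vehicle throughout.

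None of the 6 genes passed the test between the groups. Limma with Benjamini-Hochberg adjustment over all 770 genes called 0 of the 6 and 0 of 770 (0%), with adjusted p-values of 0.974 to 0.993 for the 6. At an unadjusted p under 0.05 it held 0 of the 6 and 25 of 770 (3.25%). The 2 groups overlapped in all 6 genes, against 79 of 770 genes (10.3%) whose groups did not. In the mean, Cxcl1, Cxcl2 and Cxcl3 were lower and Cxcl5, Cxcr1 and Cxcr2 higher in anti-CD40 tumours. Of all 770 genes, 420 were higher and 350 lower. The median difference was 0.09 over the 6 genes and 0.04 over all 770. The exact permutation test of 3 against 3 samples cannot give a two-sided p below 0.1, and gave 0.3 for Cxcl1 and Cxcr1 and 0.4 or more for the other 4.

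Cxcl1, also called KC and a main neutrophil attractant of the mouse, had the largest difference of the 6. Its log2 values were 8.16, 8.36 and 8.67 in vehicle 1, 2 and 3, and 6.48, 8.61 and 6.72 in anti-CD40 1, 2 and 3. The vehicle samples lay close together, whereas anti-CD40 1 and 3 lay below all of them and anti-CD40 2 lay among them. In recovered counts the vehicle samples held 153, 99 and 234 and the anti-CD40 samples 37, 158 and 36, so that the lower values were still above background. The group means were 8.40 ± 0.26 and 7.27 ± 1.17 (SD, n = 3 each). The difference of −1.13 (SE 0.54) had a 95% interval from −2.40 to 0.15 and an unadjusted p of 0.075 with limma (adjusted p = 0.974). Only 13 of 770 genes differed by more in absolute size. The difference was −1.80 without anti-CD40 2, when the groups no longer overlapped, and −0.73 without anti-CD40 1. Without anti-CD40 2 the groups of 191 of 770 genes did not overlap, and 49 genes had an unadjusted p under 0.05 with limma. The unadjusted p of Cxcl1 with limma was 0.000456 without anti-CD40 2 (adjusted p = 0.208) and 0.0451 by limma-voom on recovered counts (adjusted p = 0.952), and over all alternatives the adjusted p ranged from 0.208 to 0.997.

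Cxcl2, also called MIP-2 and released early by macrophages and mast cells among others, was near background. Its log2 values were 6.14, 7.61 and 5.94 in the vehicle samples and 5.44, 6.98 and 5.62 in the anti-CD40 samples, in the order 1 to 3. Vehicle 2 and anti-CD40 2 were the highest of their groups, and anti-CD40 1 and 3, at 17 and 16 counts, did not exceed background. The means were 6.56 ± 0.91 and 6.02 ± 0.84 (n = 3 each), a difference of −0.55 (SE 0.56) with a 95% interval from −1.86 to 0.77. Without vehicle 2 it was −0.023. It was −0.26 without anti-CD40 1, −0.35 without anti-CD40 3, −0.86 without vehicle 3 and −1.03 without anti-CD40 2, the last with groups that did not overlap.

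Cxcl3, a close relative of Cxcl1 and Cxcl2 encoded in the same cluster on chromosome 5, showed the same 2 high samples. It was 5.81, 7.22 and 5.002 in the vehicle samples and 5.19, 7.41 and 5.25 in the anti-CD40 samples. Only vehicle 1, vehicle 2 and anti-CD40 2 were above background, with 28, 44 and 68 counts, beside 12 to 16 in the others. The means of 6.01 ± 1.12 and 5.95 ± 1.27 (n = 3 each) differed by −0.055 (SE 0.75), with a 95% interval from −1.80 to 1.69. The spread within groups exceeded the difference, and only 24 of 770 genes had a larger pooled SD. Leaving out 1 sample turned the sign in 3 of 6 cases, to 0.55 with vehicle 2 left out, 0.32 without anti-CD40 1 and 0.29 when anti-CD40 3 was left out. The other 3 cases gave −0.16 (vehicle 1 left out), −0.56 (vehicle 3) and −0.79 (anti-CD40 2). After subtraction of the negative control mean, the differences of Cxcl2 and Cxcl3 became −2.11 and −1.99. Little signal was left after the subtraction: the lowest Cxcl2 counts lay close above the control mean of their libraries, and the 2 lowest of Cxcl3 lay below it and were set to 1 normalized count before the logarithm.

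Cxcl5, also called LIX, is a ligand made largely by epithelial and stromal cells. Its values were 8.74, 9.49 and 8.57 in the vehicle samples and 8.14, 10.34 and 8.997 in the anti-CD40 samples, all above background. The anti-CD40 group held both the lowest and the highest sample, and its range of 2.21 enclosed the vehicle range of 0.91. In counts, anti-CD40 2 stood at 530, beside 121 to 230 in the 5 other samples. The means of 8.93 ± 0.49 and 9.16 ± 1.11 (n = 3 each) differed by 0.23 (SE 0.55), with a 95% interval from −1.07 to 1.52. The sign turned without anti-CD40 2, to −0.36. It was 0.74 when anti-CD40 1 was left out and 0.50 without vehicle 2, and 0.13 and 0.048 without vehicle 1 and 3.

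**Figure D1:**
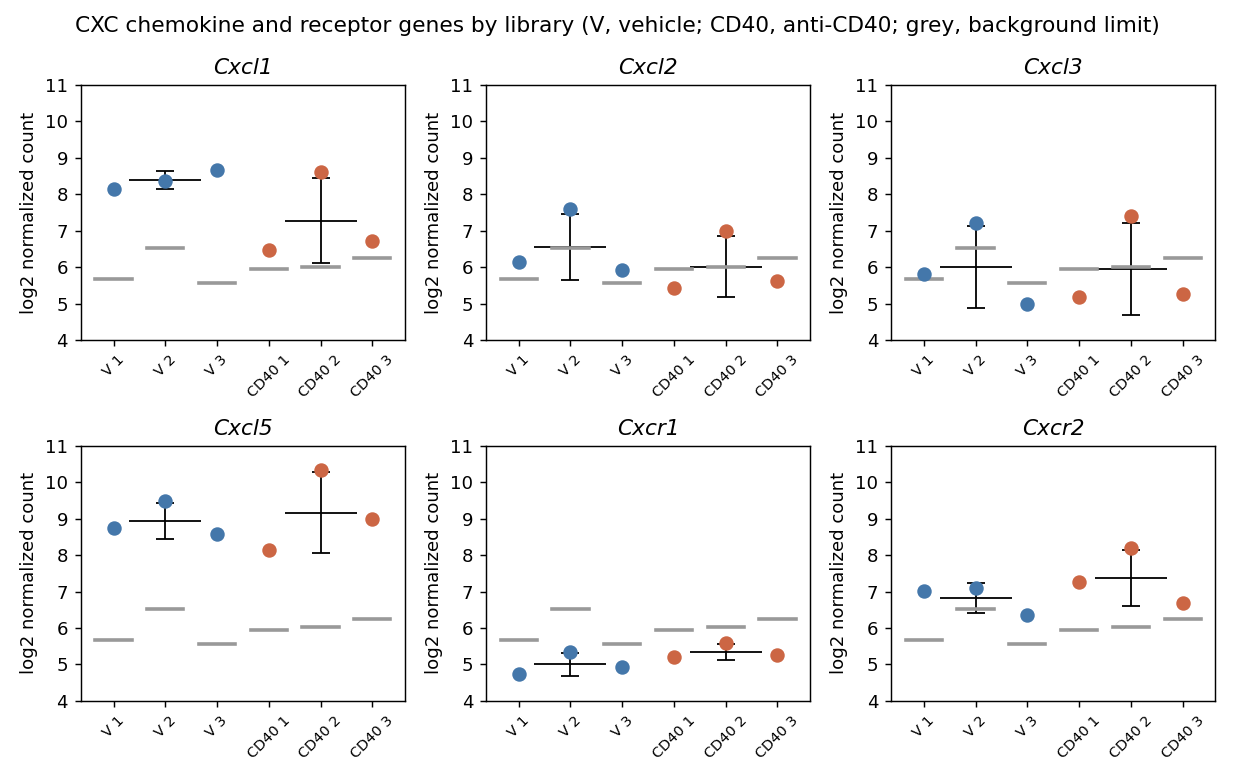
Log2 normalized count (vertical axis) of each of the 6 genes in the 3 vehicle (blue) and 3 anti-CD40 (orange) samples; grey bars mark each library's background limit, and black bars the group mean with SD. Cxcl1 is split between anti-CD40 2, at 8.61, and anti-CD40 1 and 3, at 6.48 and 6.72, and every Cxcr1 value lies below its limit.

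Of the receptors, Cxcr2, through which neutrophils respond to all of these ligands, was above background in every sample. Its values were 7.01, 7.09 and 6.35 in the vehicle samples and 7.26, 8.19 and 6.68 in the anti-CD40 samples. Anti-CD40 2 and 1 were above every vehicle sample and anti-CD40 3 was among them. The means of 6.82 ± 0.40 and 7.38 ± 0.76 (n = 3 each) differed by 0.56 (SE 0.42), with a 95% interval from −0.42 to 1.53 and an unadjusted p of 0.219 with limma (adjusted p = 0.974). It was 0.15 without anti-CD40 2, 0.33 without vehicle 3 and 0.91 without anti-CD40 3, where the groups no longer overlapped. Without anti-CD40 3 the groups of 120 genes in all did not overlap. In bulk tumour RNA, fewer cells of a type and less RNA per cell cannot be told apart.

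Cxcr1, the second receptor of the pair, did not exceed background in any of the 6 samples. It stood at 4.73, 5.35 and 4.92 in the vehicle samples and at 5.19, 5.60 and 5.25 in the anti-CD40 samples, from 11 to 18 counts each. The negative controls of the same libraries averaged 12.4 to 16.1 counts. The difference of 0.35 (SE 0.25, 95% interval −0.25 to 0.95) is therefore one between background readings, in which the library factors enter. With vehicle 2 left out it was 0.52 and the groups did not overlap, as for 174 genes in all. With vehicle 1 or anti-CD40 2 left out it was 0.21 or 0.22. After quantile normalization the groups of Cxcr1 and of Cxcr2 did not overlap, with differences of 0.27 and 0.63, and neither passed the test. The groups of 87 genes in all did not overlap after that normalization.

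**Figure D2:**
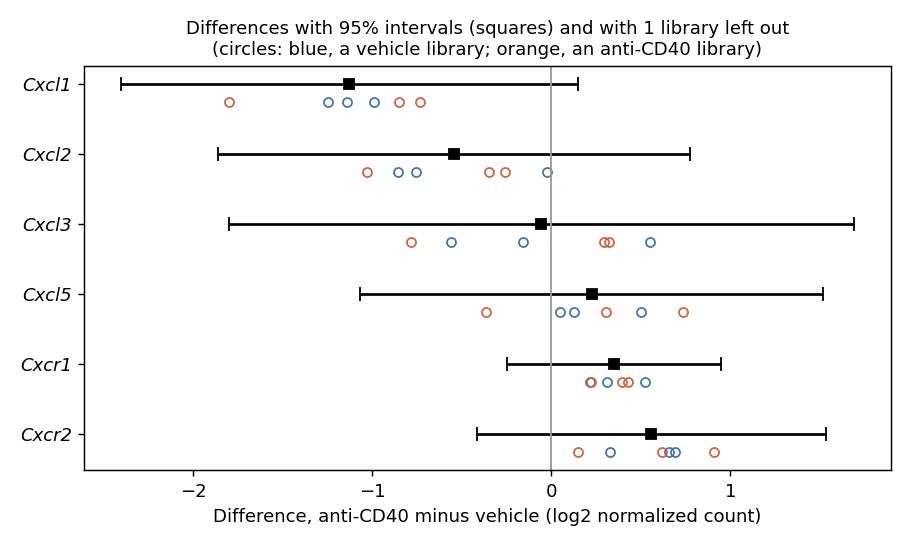
Difference between group means in log2 normalized counts (horizontal axis) for each gene, as a square with its 95% interval from limma, and with 1 sample left out at a time as circles. Every interval includes 0, and the circles of Cxcl3 and Cxcl5 lie on both sides of it.

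Anti-CD40 2 was the highest sample of its group in 6 of 6 genes, ligands and receptors alike, where it held that place for 46.0% of all 770 genes. Vehicle 2 was the highest of its group in 5 of 6, Cxcl1 being the exception, and in 49.1% of all genes. Anti-CD40 1 was the lowest of its group in 5 of 6 (39.6% of all genes), with Cxcr2 the exception. In counts it did not lie below anti-CD40 3 for Cxcl1 (37 and 36), Cxcl2 (17 and 16), Cxcl3 or Cxcr1 (14 and 12 each). There the order of these 2 samples came from their factors of 2.29 and 2.80. Anti-CD40 1 held 497475 gene counts in all and anti-CD40 3 held 333400, so like counts are a smaller share of anti-CD40 1. Cxcl2, Cxcl3 and Cxcr1 were below background in both samples. Vehicle 2 also had the largest library factor, 3.28, and its background limit was the highest, while the factor of 2.44 in anti-CD40 2 lay within the range of the other libraries. For Cxcr1, vehicle 2 held the fewest counts of its group (11, beside 12 and 15) and ranked highest only after scaling. For the other genes near background, the part of the scaling factor in the vehicle 2 values was not tested.

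The likeness of gene profiles was measured as the root mean square distance over the 6 samples after each gene was centred on its mean and divided by its SD, so that 0 stands for the same pattern. It is a description over 6 samples, and libraries and their scaling are shared by all genes. Among the 15 pairs of the 6 genes, Cxcl2 and Cxcl3 were the closest at 0.36, followed by Cxcl3 and Cxcl5 at 0.44. Cxcl1 and Cxcr1 were the farthest apart at 1.31. Cxcl3 was above background in 3 of 6 samples and Cxcr1 in 0, so distances to these 2 genes include background readings. Cxcl1 was no closer than 0.73 to any of the other 5, although its promoter carries the letters also found in those of Cxcl2 and Cxcl3.

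Of 583 other genes above background in at least 4 samples, the one closest to Cxcr2 was Csf3r, at 0.19. Csf3r encodes the receptor for granulocyte colony-stimulating factor, which neutrophils and their precursors carry. It was 6.70, 6.90 and 5.22 in the vehicle samples and 6.72, 8.29 and 5.78 in the anti-CD40 samples, with the same sample highest as for Cxcr2. Csf3r did not exceed background in vehicle 3 and anti-CD40 3, so its distance to Cxcr2 includes background readings. Next came the phosphatase gene Dusp6 at 0.22 and the MHC class I gene H2-Q10 at 0.31. Closest to Cxcl1 were the cytokine gene Il7 (0.27), the kinase gene Prkcd (0.28) and the B7 family gene Cd276 (0.28). Closest to Cxcl2 were Tigit (0.27), Il12rb2 (0.30) and Il19 (0.32), and closest to Cxcl5 were Cxcr3 (0.36), Batf (0.41) and Sh2d1b1 (0.43). Il12rb2 and Il19, like Cxcl2 itself, did not exceed background in anti-CD40 1 and 3. Tigit, Il7 and H2-Q10 did not exceed it in anti-CD40 3. Cxcl3 and Cxcr1 were above background in too few samples for this comparison.

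Neutrophil genes are given beside the receptor because neutrophils are known to carry Cxcr2. Of 6 measured mature neutrophil genes, 3 exceeded background in all samples. In the mean, 4 had the higher mean in anti-CD40 tumours and 2 the lower, with none called and a median difference of 0.22 that lay between −0.19 and 0.70 with 1 sample left out. Their summed normalized counts ran from 28591 to 143384 in vehicle and from 28186 to 149412 in anti-CD40 samples, with vehicle 3 and anti-CD40 3 lowest. Those sums consist mostly of S100a8, a calcium-binding protein gene of neutrophils that inflamed squamous epithelium also expresses, at 16.75, 17.12 and 14.79 in vehicle and 16.43, 17.18 and 14.77 in anti-CD40 samples. The decoy interleukin-1 receptor gene Il1r2 was 7.74, 6.69 and 6.73 in vehicle and 7.03, 7.53 and 6.47 in anti-CD40 samples. Vehicle 3 and anti-CD40 3 were also the lowest samples of their groups for Cxcr2. Vehicle 3 held that place for 64.3% of all genes, however, and anti-CD40 3 for 36.6%. The median log2 value of vehicle 3, 7.68, was the lowest of all libraries, beside 8.17 and 8.18 in vehicle 1 and 2. The mean log2 value of the 6 mature neutrophil genes was 8.39, 8.79 and 7.20 in vehicle 1, 2 and 3. That of the 20 housekeeping genes was 11.05, 11.11 and 11.05. The part of neutrophil number in the Cxcr2 values was not tested.

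Granule genes, which neutrophil precursors express, followed another order. All 7 measured ones had the higher mean in anti-CD40 tumours, none was called, and 1 of the 7 was above background in all samples. The median difference of 0.74 ranged from 0.15 to 1.98 with 1 sample left out. Their summed normalized counts ran from 407 to 4796 in vehicle and from 758 to 6309 in anti-CD40 samples. The cathelicidin gene Camp was 4.27, 10.81 and 4.84 in vehicle and 11.17, 8.87 and 5.14 in anti-CD40 samples. The myeloperoxidase gene Mpo, at 5.55, 9.57 and 5.57, then 9.43, 7.84 and 5.85, had the same 3 high samples, and the lipocalin gene Lcn2 was 10.62, 9.84 and 7.79, then 10.88, 10.55 and 9.05. Anti-CD40 1, at or near the top for these granule genes, was the lowest of its group for all 4 ligands. For Cxcl2 and Cxcl3, however, anti-CD40 1 and 3 were both below background. For Cxcl1 their counts before scaling were 37 and 36, and for Cxcl5 121 and 181, in libraries of 497475 and 333400 gene counts. The wider list of 20 measured neutrophil markers, which takes in both lists and the integrin gene Itgam (8.98, 9.33 and 7.96, then 9.03, 9.53 and 8.96), had 17 higher and 3 lower, with a median of 0.41 that was between −0.025 and 0.83 with 1 sample left out.

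**Figure D3:**
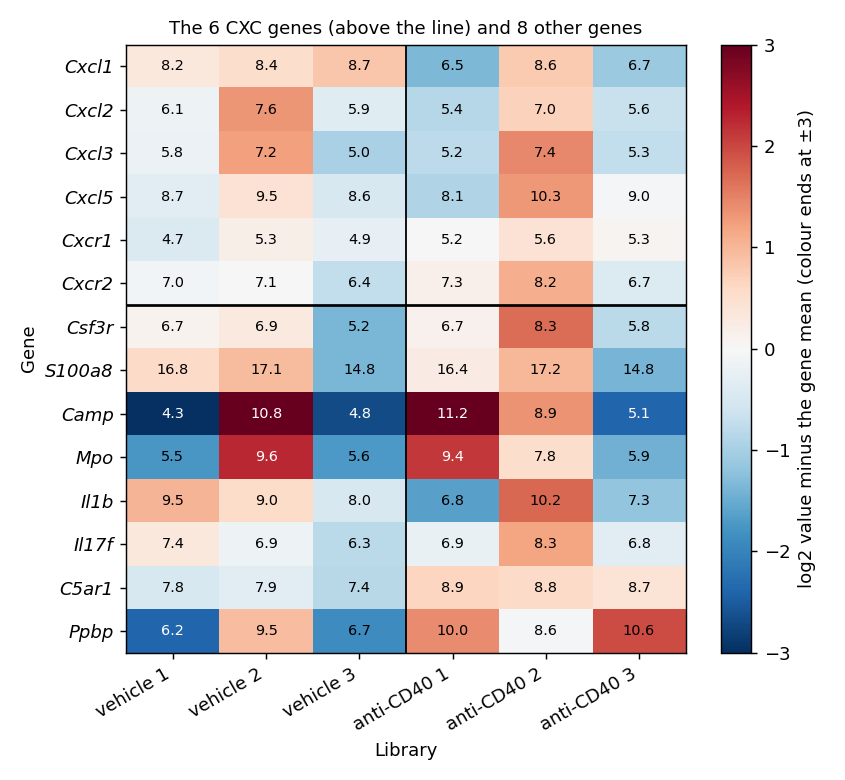
Log2 normalized counts (numbers in the cells) of the 6 CXC genes and 8 other genes (rows) in the 6 samples (columns), coloured by the distance from the gene's own mean. Csf3r resembles Cxcr2, with 8.29 and 8.19 in anti-CD40 2, whereas Camp is high in vehicle 2 and anti-CD40 1. The Csf3r values in vehicle 3 and anti-CD40 3 do not exceed background.

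Genes that act upstream of these ligands did not pass the test either. Of 29 measured inducers and signalling genes, 16 had a higher and 13 a lower mean, 0 were called in either direction, and the median difference was 0.035. The lowest p-values among them belonged to the NF-κB inhibitor gene Tnfaip3, with a difference of −0.63 (SE 0.32), the NF-κB subunit gene Rel (−0.55, SE 0.28), the AP-1 gene Fos (−1.14, SE 0.59) and Il1a, which encodes interleukin-1 alpha (−0.47, SE 0.31). Fos ran from 10.62 to 13.05 in vehicle and from 10.19 to 10.995 in anti-CD40 samples, so its groups overlapped. Il1b and Il17f, picked after their values were seen, encode cytokines that induce these ligands. Il1b was 9.48, 9.01 and 7.996 in vehicle and 6.84, 10.18 and 7.28 in anti-CD40 samples, and Il17f was 7.41, 6.94 and 6.29, then 6.87, 8.29 and 6.76. Both were highest in anti-CD40 2, as were 13 of the 29 genes in all and 18.3% of the 770, whereas Il1a was highest in vehicle 2. Also picked after their values were seen were Rela and Nfkbia. The NF-κB subunit gene Rela differed by 0.13 and ran from 9.59 to 9.86 over all samples. Nfkbia, an NF-κB target gene that encodes one of its inhibitors, was 10.58, 10.44 and 10.08 in vehicle and 10.06, 10.44 and 10.10 in anti-CD40 samples.

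Among the other 13 measured CXC chemokine and receptor genes, 8 had a higher and 5 a lower mean, 0 were called and the median difference was 0.17. Ppbp, whose product Cxcl7 is a platelet ligand of Cxcr2, was 6.21, 9.51 and 6.70 in vehicle and 10.01, 8.56 and 10.56 in anti-CD40 samples. It was thus lowest of its group in anti-CD40 2, the sample of that group in which all 6 genes were highest. Cxcl13, a B cell attractant, differed by 1.42 (SE 0.62), and the Cxcr3 ligands Cxcl10 and Cxcl9 by −1.51 (SE 0.84) and −1.35 (SE 0.76). Each of these 4 genes had an adjusted p of 0.974 with limma. Cxcl15, a further chemokine of the Glu-Leu-Arg class that was also picked after its values were seen, was at or below background in every sample.

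Of 4 measured receptors for other neutrophil attractants, 3 were higher and 1 lower in the mean, and 0 were called. The C5a receptor gene C5ar1 was 7.80, 7.93 and 7.45 in vehicle and 8.92, 8.85 and 8.69 in anti-CD40 samples. Its groups did not overlap, as for 79 of all 770 genes. The difference was 1.09 (SE 0.23), with an unadjusted p of 0.00175 and an adjusted p of 0.974 with limma. Ccr1, a receptor for several CC chemokines, differed by 0.58 (SE 0.36), the formyl peptide receptor gene Fpr2 by 0.14 (SE 0.57) and the C3a receptor gene C3ar1 by −0.023 (SE 0.32). The difference of 0.56 in Cxcr2 lay between those of C5ar1 and Fpr2, and no difference between receptors was tested.

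**Figure D4:**
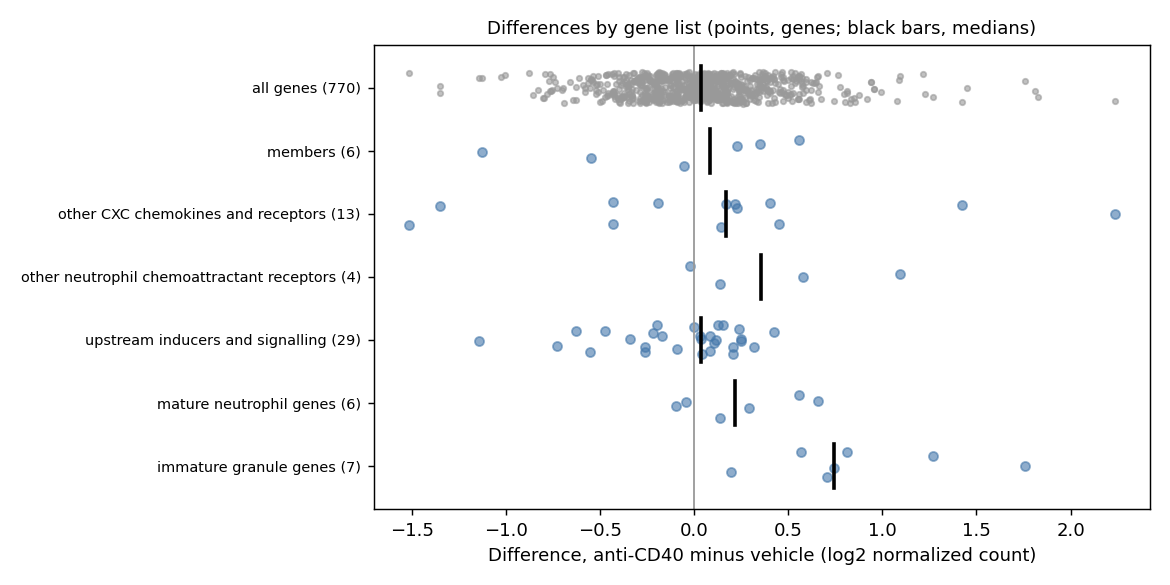
Difference between group means in log2 normalized counts (horizontal axis) for every gene of each list (points) with the list's median (black bars). The 6 CXC genes have a median of 0.09, all 770 genes one of 0.04 and the 7 granule genes one of 0.74.

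Markers of other cells that could hold these transcripts were measured in the same fit, and 0 of their genes were called. The median differences were −0.11 over 7 squamous epithelial genes, 0.25 over 12 macrophage and monocyte genes, 0.15 over 7 fibroblast genes and 0.23 over 9 endothelial genes. They were 0.80 over 3 platelet genes, 0.37 over 8 mast cell and eosinophil genes, −0.26 over 7 T cell genes, 0.10 over 6 B cell genes and 0.010 over 20 housekeeping genes. With 1 sample left out these medians ranged from −0.32 to −0.18 (epithelial), −0.011 to 0.39 (macrophage and monocyte), 0.022 to 0.34 (fibroblast), −0.052 to 0.42 (endothelial) and 0.47 to 1.21 (platelet). They ranged from 0.20 to 0.55 (mast cell and eosinophil), −0.60 to −0.024 (T cell), −0.25 to 0.66 (B cell) and −0.078 to 0.044 (housekeeping). The macrophage and endothelial medians turned negative without vehicle 3. Summed normalized counts of the 7 epithelial genes were 16449, 17516 and 24676 in vehicle and 13036, 18900 and 12929 in anti-CD40 samples, lowest in the 2 samples with the least Cxcl1. Genes of high level weigh most in such sums, among them the integrin gene Itga6, picked after its values were seen. Itga6 was 12.27, 12.53 and 13.38 in vehicle and 11.66, 12.88 and 11.89 in anti-CD40 samples. The mean log2 value over the 7 genes differed less, at 10.23, 10.07 and 10.28, then 9.80, 10.13 and 10.03. Single genes of the list did not all follow the order of the sums: Egfr was highest in anti-CD40 3, at 10.25, and Epcam was higher in anti-CD40 1 (11.34) than in anti-CD40 2 (11.02). The part of epithelial content in the Cxcl1 values was not tested.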

How the data were processed

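The deposited table holds log2 normalized counts, by its name, in 784 rows, of which 770 are genes, 6 positive and 8 negative controls by their names; every value column was matched to 1 sample by its name. The sources used here do not name the platform, the counting software or the normalization. Each deposited log2 value was found to be log2(factor × count + 4.55), with 1 factor per library and whole counts (4704 of 4704 values whole within 0.05 of a count), which understates differences of genes with few counts. Groups were compared with limma 3.58.1 in R 4.3.3 (lmFit, eBayes, all 6 samples, no covariate, two-sided, Benjamini-Hochberg over 770 genes, threshold 0.05) on the deposited values, with 4 residual and 3.37 prior degrees of freedom. The procedure was tested on simulated data. Tables were made with pandas 2.3.3 in Python 3.11.15, and plots with matplotlib 3.10.9. Named were the 6 genes, up to 4 genes of lowest p in 3 pathway lists and the 3 highest in each neutrophil list; 1 gene that the rule names is not reported here, and others are marked as picked after their values were seen. The 6 genes and all lists were chosen with earlier results of these data known. Alternatives were trend and robust moderation, a filter, 2 normalizations, an offset of 1, background subtraction, limma-voom, a replicate block and leaving out each sample. No protein sequences were used here.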

Additional observations from a re-analysis of the deposited data

How the results depend on the processing

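No alternative that was run called any of the 6 genes, and none turned a sign except leaving out 1 sample. Cxcl3 was 0.55 with vehicle 2 left out, 0.32 without anti-CD40 1 and 0.29 when anti-CD40 3 was left out, and Cxcl5 was −0.36 without anti-CD40 2. With 1 sample left out the differences ranged from −1.80 to −0.73 for Cxcl1, from −1.03 to −0.023 for Cxcl2, from −0.79 to 0.55 for Cxcl3, from −0.36 to 0.74 for Cxcl5, from 0.21 to 0.52 for Cxcr1 and from 0.15 to 0.91 for Cxcr2. The count of genes called was 0 under every alternative except background subtraction, which called 1 of 770, the lectin pathway gene Masp2; the cause was not tested. Genes whose groups did not overlap numbered 79, and 111 to 191 with 1 sample left out, where fewer samples have to be kept apart. At an unadjusted p under 0.05, limma counted 25 genes, 52 after quantile normalization and 41 after background subtraction. The replicate numbers did not pair the samples: deviations of same-numbered samples correlated at −0.427, 0.069 and 0.277, and not every sample correlated best with its own number. With the number as a replicate block the differences were the same by construction (−1.13 for Cxcl1, −0.55 for Cxcl2, −0.055 for Cxcl3, 0.23 for Cxcl5, 0.35 for Cxcr1, 0.56 for Cxcr2), limma called 0 genes, and 32 had an unadjusted p under 0.05. Cxcl1 was among these (adjusted p = 0.964 with limma). The block lowered the SE from 0.54 to 0.45 for Cxcl1, from 0.56 to 0.26 for Cxcl2 and from 0.75 to 0.30 for Cxcl3. It also lowered the SE from 0.55 to 0.35 for Cxcl5 and from 0.42 to 0.29 for Cxcr2, but not for Cxcr1 (0.25 and 0.26). Without vehicle 3 the medians of the other CXC genes (−0.023) and of the upstream genes (−0.086) turned negative, as they did without anti-CD40 2 (−0.051 and −0.084). Cxcr1 did not enter the fit filtered on low values. Counts near background limit what can be said of Cxcl2, Cxcl3 and Cxcr1.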
